A study of Mus musculus with 10 samples.

Results

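The 7 genes described here are members of the angiopoietin and TIE receptor pathway: the ligands *Angpt1*, *Angpt2* and *Angpt4*, the receptors *Tek* and *Tie1*, the phosphatase *Ptprb* and the matrix gene *Svep1*. They were chosen by name, with no value of these data in the rule but with earlier results of these data known. All 7 were found by Ensembl identifier among the 46517 mouse genes of the count tables. Their transcripts were followed in dermal lymphatic endothelial cells (LECs), in LECs of lymphatic valves and in blood endothelial cells (BECs) of the ear skin, and mutant mice were compared with controls. Single cells had been sorted by FACS on PDPN and PECAM1 into 384-well plates and sequenced with Smart-Seq2, a method that reads whole transcripts without molecular barcodes. The question was how a vascular overgrowth driven by activated PI3K changes this pathway in each kind of vessel.

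The mutant group held 5 *Pik3caH1047R*;*Cdh5-CreERT2* mice, which carry an activated p110α behind a stop cassette in the *Rosa26* locus and a tamoxifen-inducible Cre in all endothelial cells. They had received 4-hydroxytamoxifen (4-OHT, 10 mg/ml) on the ear at 3 wk of age. Control 2 was a Cre-negative littermate with the same treatment, and control 1 was an untreated wild-type C57BL/6J mouse. All 7 mice were analyzed at 5 wk of age, and control 3 was not analysed here. Mutants 3 and 5 had 2 plates each, which were summed per mouse. The transgene has no entry in the tables, so which mutant cells had recombined was not known, and the controls differ from each other in breeding and treatment.

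TEK, also called TIE2, is a receptor tyrosine kinase of endothelial cells that signals mainly through PI3K and AKT. ANGPT1, made largely by mural and mesenchymal cells, activates it, whereas ANGPT2, stored and released by the endothelium itself, acts as a weak or context-dependent ligand. TIE1 binds no angiopoietin on its own and modulates TEK as a partner, PTPRB (VE-PTP) removes phosphate from TEK, and SVEP1 is an extracellular matrix protein needed for lymphatic vessel remodeling. AKT excludes the transcription factor FOXO1 from the nucleus, and *Angpt2* is a known FOXO1 target. In lymphatic vessels the pathway is known for its part in the maturation of collecting vessels and valves.

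On mouse genome GRCm38, with GENCODE vM21 genes, *Tek* lies at chr4:94739289-94874976 on the plus strand and *Tie1* at chr4:118471191-118490061 on the minus strand. *Angpt2* lies at chr8:18690263-18741562 on the minus strand, within the span of *Mcph1* but sharing none of its exon bases. *Ptprb* lies at chr10:116275523-116389535 on the plus strand, *Angpt1* at chr15:42424723-42676977 on the minus strand, *Angpt4* at chr2:151911210-151945337 on the plus strand and *Svep1* at chr4:58042442-58206859 on the minus strand. Of the exon bases, 14.2% of *Angpt1* are shared with the predicted gene *Gm17473* and 13.9% of *Svep1* with *Gm26889*. Smart-Seq2 does not mark the strand, so reads of those stretches cannot be told apart.

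The promoters of both receptors are shown because *Tek* and *Tie1* were read in every endothelial class. Each window holds 250 bases before and 50 after the start of the gene in RefSeq (GRCm38.p6), 5′ to 3′, at chr4:94739039-94739338 on the plus strand for *Tek* and at chr4:118489800-118490099 on the minus strand for *Tie1*. The *Tek* window lies mostly before the GENCODE span of its gene. The *Tie1* window lies mostly inside that of its gene, which starts at 118490061 on the minus strand, so the windows are placed differently to the GENCODE spans. Capitals mark each GGAA and each TTCC, its reverse complement, the core letters that ETS family factors of the endothelium recognize.
Tek: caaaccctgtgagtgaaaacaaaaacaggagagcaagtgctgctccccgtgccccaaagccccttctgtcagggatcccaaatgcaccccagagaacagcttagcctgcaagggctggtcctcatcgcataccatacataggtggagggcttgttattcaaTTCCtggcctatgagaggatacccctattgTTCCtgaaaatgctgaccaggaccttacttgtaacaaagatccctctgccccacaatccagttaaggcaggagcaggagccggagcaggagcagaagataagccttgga
Tie1: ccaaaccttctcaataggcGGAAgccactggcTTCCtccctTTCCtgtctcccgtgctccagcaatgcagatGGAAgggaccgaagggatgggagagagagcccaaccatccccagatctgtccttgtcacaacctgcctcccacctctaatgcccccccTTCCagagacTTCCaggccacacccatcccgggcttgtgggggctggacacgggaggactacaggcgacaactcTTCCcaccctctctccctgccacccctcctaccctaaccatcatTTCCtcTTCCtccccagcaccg
The *Tie1* window held 9 of these motifs and the *Tek* window 2. Over 32851 promoters of the same length the median was 3, and 96.0% held at least 1. At least 9 were found in 1.59% of them, and at least 2 in 84.6%. The windows of *Angpt4* and *Svep1* held 5 and 6, and those of *Angpt1*, *Angpt2* and *Ptprb* were not read. These matches are a description of the letters only.

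Wells under 200 genes or 50000 reads, or above 10% mitochondrial reads, were left out, and 3248 of 3456 remained, of which 1641 were LECs, 1542 BECs and 65 neither. A cell was called a LEC where the depth-scaled read numbers (CPM, reads of a gene relative to all reads of the cell) of *Prox1*, *Flt4* and *Mmrn1* summed to at least 300 and exceeded the sum of *Flt1*, *Emcn* and *Podxl*, and a BEC where the latter sum was larger. Valve LECs, 231 in all and 19–57 per mouse, had *Cldn11* at 300 CPM or more. Cells had a median of 300448 reads in mutants and 286372 in controls, and the sum over a mouse held 55616045–194353210 reads for LECs, 39610940–102714572 for BECs and 5906709–21490524 for valve LECs. Checked against their markers, 7 LEC markers together reached 7205–10848 CPM in LECs and 152–679 CPM in BECs. Of the LECs, 63.9% also had a BEC gate sum of at least 300 CPM.

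Fibroblast and mural markers moved with the genotype in BECs and LECs, and markers of other cell types did so only in part. All 5 fibroblast markers were read in every mouse and summed to 12.8–53.8 CPM in mutant BECs and 570.2–769.0 CPM in control BECs, and to 15.8–106.1 and 192.7–381.6 CPM in LECs. The 5 mural markers, also all read, summed to 35.1–345.4 CPM in mutant and 396.8–687.5 CPM in control BECs, and to 39.1–70.3 and 117.3–146.3 CPM in LECs. Keratinocyte markers overlapped between genotypes, at 9.97–737.8 CPM in mutant and 439.7–491.1 CPM in control BECs, and at 52.7–259.2 and 169.9–283.4 CPM in LECs. Glial markers overlapped in BECs and were higher in control LECs. Immune markers overlapped in both, and in valve LECs were higher in mutants (5.18–18.9 against 0.339–1.72 CPM). Cells whose keratinocyte, fibroblast, mural, immune or glial marker sum was 300 CPM or more made up 4.89–16.8% of mutant and 26.8–50.9% of control BECs, and 7.07–17.6% and 18.3–25.1% of LECs. Their part in the results was not tested, and values without these cells are given beside the results they move. Mutants 1–4 came from plates numbered in the 300s, and mutant 5 and both controls from plates in the 800s and 900s, so plate series and genotype cannot be told apart for most mutants.

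Compared per kilobase of exon over all 7 mice, *Tie1* was the most highly read member in each class. In LECs *Tie1* had 244 ± 32.5 CPM per kb (SD, n = 7 here and below), *Tek* 48.1 ± 7.65, *Angpt2* 41.8 ± 14.3 and *Ptprb* 14.6 ± 3.16. The levels of *Tek* and *Angpt2* overlapped over the 7 mice, and *Angpt2* was above *Tek* in both controls and mutant 5 and below it in mutants 1 to 4. In valve LECs the order was *Tie1* with 303 ± 52.6 CPM per kb, *Angpt2* with 95.9 ± 46.0, *Tek* with 59.8 ± 24.5 and *Ptprb* with 22.3 ± 6.49, and again *Angpt2* and *Tek* overlapped. BECs had *Tie1* at 233 ± 65.8 CPM per kb, *Ptprb* at 113 ± 19.6, *Tek* at 94.5 ± 10.5 and *Angpt2* at 28.5 ± 5.90, and the spreads of *Ptprb* and *Tek* overlapped. *Angpt1*, *Angpt4* and *Svep1* had at most 1.16 CPM per kb in any sum of these classes.

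Among the ligands, *Angpt2* was the member read in quantity, and it was lower in mutant LECs than in control LECs. It stood at 172, 122, 112, 95.1 and 129.9 CPM in LECs of mutants 1 to 5 and at 221 and 226 CPM in those of controls 1 and 2. Every mutant mouse lay below both controls, a pattern that 11.7% of the genes tested in LECs shared. The fold change was −0.78 on the log2 scale (SE 0.20, 95% CI −1.23 to −0.33), with an adjusted p of 0.0767 in edgeR's quasi-likelihood test over all genes and 0.00771 in DESeq2, which called 12.5% of genes. In LECs edgeR called 546 of 19758 genes (2.76%) and 0 of the 6 members it tested, with 387 genes higher and 159 lower. Fewer *Angpt2*-expressing cells and less RNA per cell cannot be told apart in such sums. Within the 800s and 900s plates alone, where mutant 5 stood against both controls, the difference was −0.73 (SE 0.38).

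LECs outside the valves were also compared. In those under 300 CPM *Cldn11*, *Angpt2* had 71.8, 85.3, 102, 78.8 and 104 CPM in the mutants and 219 and 182 CPM in the controls. All 5 mutants were below both controls, as for 12.1% of genes, and the log2 fold change of −1.14 (SE 0.19) passed edgeR's test with an adjusted p of 0.0234, in a fit that called 3.31% of genes. This test and those of the other subsets below were added after the levels had been seen. Without cells that carried markers of other cell types it was −1.20 (adjusted p = 0.0282). The call was lost without control 1, mutant 2 or mutant 4, with adjusted p values of 0.109, 0.0567 and 0.0633, and within the 800s and 900s plates, with the mutant arm of 1 mouse, the value was −0.90.

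In valve LECs *Angpt2* varied widely from mouse to mouse. The mutants had 512, 353, 158, 234 and 349 CPM and the controls 234 and 638 CPM, so that the groups overlapped. The log2 fold change was −0.46 (95% CI −1.44 to 0.53, adjusted p = 0.701 in edgeR), and without control 2 it turned to 0.36. The plates of mutant 5 alone differed, with 188 CPM in valve LECs of the first and 467 CPM in those of the second. In valve LECs edgeR called 0 of 13948 genes (0%), while 1760 had an unadjusted p under 0.05 and DESeq2 called 909 (6.52%). The genotype effect in valve LECs and that in other LECs differed by 0.69 (SE 0.59, adjusted p = 0.818), so a difference between them was not shown.

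BECs as a whole showed no such shift of *Angpt2*. It had 88.2, 133, 116, 86.8 and 83.6 CPM in mutants and 96.6 and 134 CPM in controls, with a log2 fold change of −0.11 (95% CI −0.68 to 0.45, adjusted p = 0.836). In BECs edgeR called 364 of 19478 genes (1.87%), and again 0 of the 6 members tested. The difference between the LEC and the BEC effect, −0.70 (SE 0.32), did not pass the test either (adjusted p = 0.470), where 0.182% of 22000 genes did. Both plates of mutant 3 were far apart in BECs, with 49.1 and 206 CPM.

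BECs were also split by *Apln*. This gene, which encodes the peptide apelin and marks tip cells and activated capillary endothelium, was at or above 100 CPM in 41.7, 51.1, 48.8, 39.6 and 42.9% of BECs of the mutants and in 9.82 and 15.9% of BECs of the controls. *Apln* itself was higher in mutant BECs by 2.69 on the log2 scale (edgeR adjusted p = 0.0122), so the gate is set by a gene that differed between genotypes, and a change within cells cannot be told apart from a change in which cells the gate selects. These *Apln*-positive BECs had 22.8, 43.7, 55.6, 39.5 and 15.9 CPM of *Angpt2* in mutants and 323 and 277 CPM in controls. The groups did not overlap, with all mutants below (11.8% of genes), and the log2 fold change was −3.14 (SE 0.42, edgeR adjusted p = 0.00745), in a fit that called 8.3% of genes. It stayed between −3.36 and −2.93 with each mouse left out, was −3.26 without cells carrying markers of other types, and was −4.30 in mutant 5 against both controls within the 800s and 900s plates. The control side rests on 16 cells of control 1 and 26 of control 2. In BECs as a whole the 10% of cells with most *Angpt2* reads held 82.8–97.9% of them in a mouse. How few cells carry the control values in the *Apln*-positive class was not tested.

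In *Apln*-negative BECs, to which the same limit applies, *Angpt2* had 145, 249, 188, 138 and 149 CPM in mutants and 68.4 and 101 CPM in controls. All 5 mutants were above both controls, as for 7.89% of genes, but the log2 fold change of 1.12 (SE 0.31) did not pass edgeR's test (adjusted p = 0.333, 0.0054% of genes called), whereas DESeq2, which called 2.9% of genes, gave an adjusted p of 0.0257. The difference between the effects in *Apln*-positive and *Apln*-negative BECs, with the mouse as a block, was −4.35 (SE 0.48, edgeR adjusted p = 0.0187), where 0.917% of 19848 genes were called and the median gene stood at 0.41. That call was lost without mutant 1 (adjusted p = 0.0732) and without mutant 2 (0.0623). Cells carrying markers of other types were uneven in the *Apln*-negative class. Without them, 68 of 147 cells of control 1 and 98 of 138 of control 2 remained. The mutants kept 94 of 109, 83 of 90, 141 of 174, 85 of 113 and 147 of 181. Their part in the *Apln*-negative value and in the difference was not tested. Mutant 5 against both controls alone gave −5.17.

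A like comparison in LECs used *Ptx3*, which encodes a secreted pentraxin and marks a capillary LEC class. *Ptx3* was at or above 100 CPM in 33.7, 33.2, 34.7, 41.8 and 44.1% of LECs of the mutants and in 6.56 and 25.1% of LECs of the controls. *Ptx3* itself stood 1.73 higher on the log2 scale in mutant LECs (adjusted p = 0.0856 in edgeR and 0.000606 in DESeq2), so the limit named for the *Apln* gate applies here too. *Angpt2* in these cells had 43.8, 92.6, 51.2, 67.0 and 69.7 CPM in mutants against 507 CPM in control 1, from 12 cells, and 219 CPM in control 2, from 44 cells. All mutants were below both controls, as for 12.2% of genes. The log2 fold change was −2.56 (SE 0.37, edgeR adjusted p = 0.0124, 5.03% of genes called), lay between −3.03 and −1.67 with each mouse left out, and was −2.45 in mutant 5 against both controls within the 800s and 900s plates. *Ptx3*-negative LECs had 249.6, 138, 150.4, 122 and 187 CPM in mutants and 198 and 229 CPM in controls, which overlapped, with a log2 fold change of −0.31 (adjusted p = 0.639, 0.0536% of genes called). The difference between both effects was −2.06 (SE 0.56) and did not pass edgeR's test (adjusted p = 0.223, 0.0202% of genes called), although DESeq2, which called 6.79% of genes, gave an adjusted p of 0.00702.

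**Figure D1:**
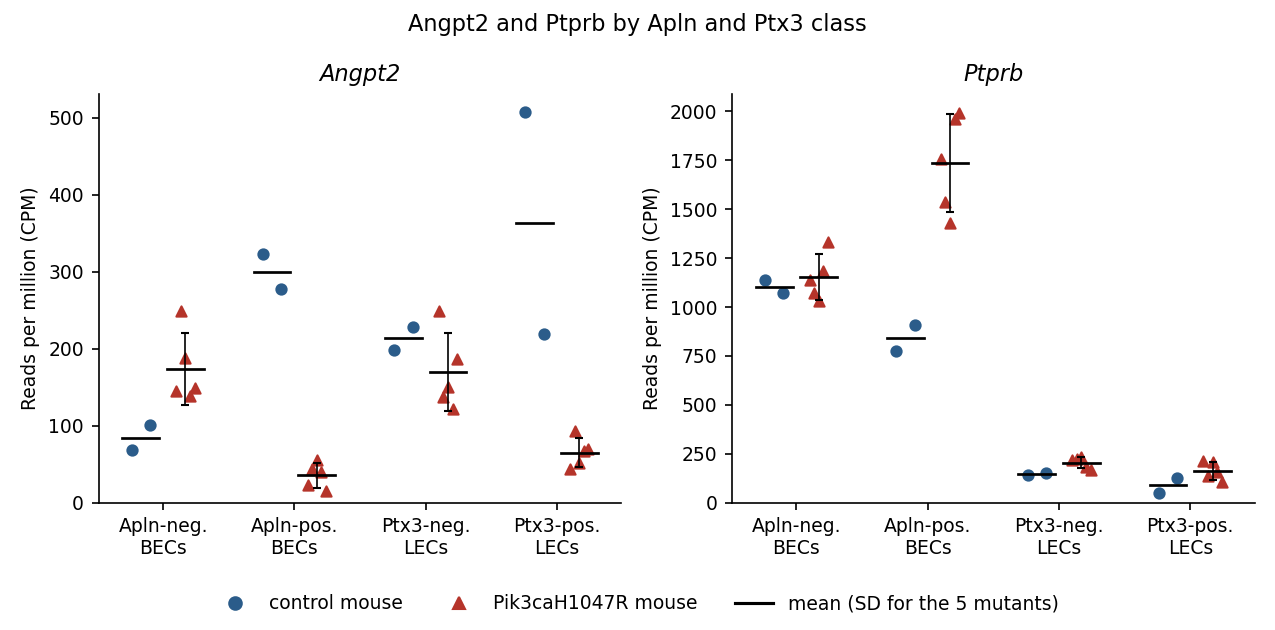
CPM of *Angpt2* and *Ptprb* in BECs split by *Apln* and in LECs split by *Ptx3* at 100 CPM, per control mouse (circles) and mutant (triangles), with the mean as a line and the SD of the 5 mutants as a bar. *Angpt2* in *Apln*-positive BECs lay at 15.9–55.6 CPM in mutants and 277–323 CPM in controls, and *Ptprb* in the same cells at 1428–1994 CPM and 776–908 CPM.

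Within mutants, *Angpt2*, *Tek*, *Tie1* and *Ptprb* were all lower in cycling LECs, those in which 3 or more of 7 cell-cycle genes were read after thinning to 50000 reads. Cycling cells made up 29.3, 16.0, 11.3, 10.4 and 19.3% of mutant LECs and 0.546 and 1.71% of control LECs. *Angpt2* was lower in cycling than in other LECs in 5 of 5 mutants, with a median ratio of 0.481, and *Tek* in 5 of 5 with a median ratio of 0.292. *Tie1* and *Ptprb* were lower in 5 of 5 as well, with median ratios of 0.695 and 0.718. *Tek* was likewise lower in *Ptx3*-positive than in *Ptx3*-negative LECs in 7 of 7 mice, with a median ratio of 0.386. So were *Tie1* and *Ptprb* in 7 of 7 mice, with median ratios of 0.834 and 0.845, and *Angpt2* in 6 of 7. These ratios are descriptions of sums of the same mouse and were not tested.

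*Angpt1* and *Angpt4*, the ligands made outside the endothelium, were at the edge of detection. *Angpt1* had 1, 184, 73, 2 and 73 reads in all LECs of the mutants and 143 and 14 reads in those of the controls, and 10, 89, 478, 7 and 3 against 147 and 0 reads in BECs. The mice were uneven rather than split by genotype, and after thinning every cell to 50000 reads only 9 of 1641 LECs and 13 of 1542 BECs had an *Angpt1* read. In control 1, 135 of the 143 LEC reads and 145 of the 147 BEC reads came from cells with markers of other skin cells, as did 471 of the 478 BEC reads of mutant 3. *Angpt4* had a read in 2 LECs and 3 BECs after thinning, and 91 reads in LECs of control 1 were the most in any mouse. No fold change is given for either gene at these read numbers.

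Of the receptors, *Tek* did not differ between genotypes in LECs or BECs within the spread of the mice. LECs had 227, 259.6, 238, 269 and 159 CPM in mutants and 216 and 219 CPM in controls. BECs had 424, 464, 444, 538 and 409 CPM in mutants and 456 and 383 CPM in controls. Both groups overlapped in each class, with a log2 fold change of 0.13 (95% CI −0.34 to 0.61) in LECs and 0.18 (95% CI −0.17 to 0.53) in BECs, and adjusted p values of 0.765 and 0.553 in edgeR. The sign in LECs turned without cells carrying other markers (−0.00071) and within the 800s and 900s plates (−0.40).

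*Tek* in valve LECs was higher in all mutants. The mutants had 295, 347, 281, 494 and 216 CPM and the controls 191 and 149 CPM. Every mutant was above both controls, as were 9.91% of the genes tested in valve LECs. The log2 fold change was 0.90 (SE 0.36, 95% CI 0.10 to 1.69) with an adjusted p of 0.363 in edgeR. Its difference from the effect in other LECs was 0.84 (SE 0.26), which did not pass the test across all genes (adjusted p = 0.449), where edgeR called 0 of 19431 genes (0%), 1595 had an unadjusted p under 0.05 and DESeq2 called 791 (4.07%).

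*Tie1* had a higher mean in mutants in each of the 3 classes, without passing edgeR's test in any. In BECs it had 1483, 1542, 1189, 1238 and 1068 CPM in mutants and 877 and 627 CPM in controls. All mutants were above both controls, which was so for 13.6% of genes in BECs, and the log2 fold change was 0.86 (SE 0.21, 95% CI 0.37 to 1.34), with an adjusted p of 0.0842 in edgeR and 0.00445 in DESeq2, which called 11% of genes. Without cells carrying other markers it was 0.65 (SE 0.21), and within the 800s and 900s plates 0.54. In LECs *Tie1* had 1401, 1344, 1337, 1187 and 1067 CPM in mutants and 1066 and 1005 CPM in controls. Mutant 5 and control 1 were about level, and the groups overlapped after TMM scaling. The log2 fold change of 0.34 (SE 0.13) had an adjusted p of 0.200. Valve LECs had 1758, 1503, 1542, 1632 and 1732 CPM in mutants and 1115 and 1162 CPM in controls. There too every mutant was above both controls, as for 9.91% of genes, at a log2 fold change of 0.48 (SE 0.15 and adjusted p = 0.287). The LEC effect of *Tie1* was below the BEC effect by 0.55 (SE 0.14, adjusted p = 0.189 in edgeR and 0.0382 in DESeq2, which called 5.34% of genes).

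*Ptprb*, the phosphatase of TEK and VE-cadherin, was also higher in mutant BECs by level. It had 1426, 1336, 1248, 1590.1 and 1656 CPM in mutants and 1097 and 1042 CPM in controls. Every mutant was above both controls, as for 13.6% of genes in BECs. The log2 fold change of 0.50 (SE 0.13, 95% CI 0.20 to 0.79) had an adjusted p of 0.0951 in edgeR and 0.0162 in DESeq2. Without cells carrying other markers it was 0.35 (adjusted p = 0.197). In *Apln*-positive BECs it had 1756, 1538, 1428, 1962 and 1994 CPM in mutants and 776 and 908 CPM in controls, under the same limit of the gate. All mutants were above both controls, as for 20.4% of genes in these cells. That was a rise of 0.99 on the log2 scale (SE 0.16, edgeR adjusted p = 0.0126), kept with every mouse left out in turn (adjusted p at most 0.0417), and 1.19 in mutant 5 against both controls within the 800s and 900s plates. *Apln*-negative BECs had 1138, 1072, 1032, 1187 and 1331 CPM in mutants and 1137 and 1072 CPM in controls, which overlapped (log2 fold change 0.13, adjusted p = 0.796, and −0.094 without cells carrying other markers). The difference between both effects was 0.87 (SE 0.10, edgeR adjusted p = 0.0205), where the median over all genes stood at 0.41. It lay between 0.80 and 1.03 with each mouse left out, but the call was lost without any of mutants 1 to 5 (adjusted p 0.0552–0.0744).

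In LECs *Ptprb* had 217, 192, 225, 169 and 136 CPM in mutants and 135 and 145 CPM in controls, at a log2 fold change of 0.47 (SE 0.21 and adjusted p = 0.251). Mutant 5 lay within the control range and the other mutants above it, and within the 800s and 900s plates the value was 0.014. Valve LECs had 303, 314, 296, 288 and 316 CPM in mutants and 99.2 and 246 CPM in controls. The mutants were close together and above both controls, at a log2 fold change of 0.80 (SE 0.32 and adjusted p = 0.360), which was 0.33 without control 1 and 1.52 without control 2. In valve LECs, 3 of the 4 members tested, *Tek*, *Tie1* and *Ptprb*, thus had every mutant above both controls, where 9.91% of genes did.

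**Figure D2:**
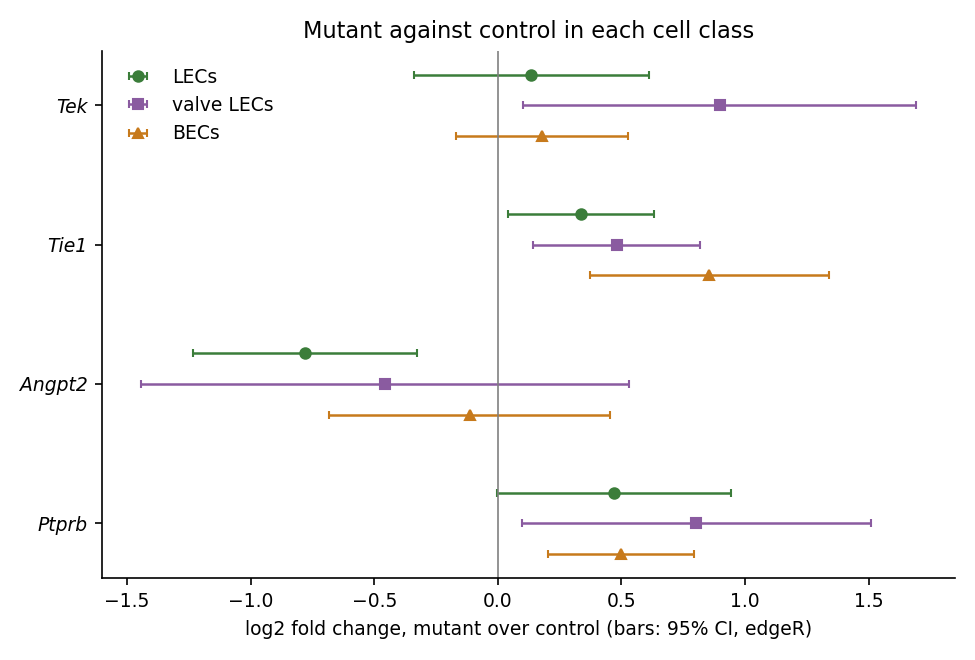
Log2 fold change of mutant over control (x axis) with its 95% CI from edgeR for *Tek*, *Tie1*, *Angpt2* and *Ptprb* in LECs (circles), valve LECs (squares) and BECs (triangles). *Tie1* in BECs stood at 0.86 and *Angpt2* in LECs at −0.78, and 0 of the 12 values passed edgeR's test after adjustment over all genes.

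*Svep1* was read in few endothelial cells. Its reads in LECs numbered 8, 0, 2, 14 and 25 in mutants and 241 and 38 in controls, and in BECs 4, 0, 6, 38 and 6 against 14 and 203. Most reads of control 1 thus lay in LECs and most of control 2 in BECs. The cells that carried *Svep1* reads were few, as 7 LECs and 8 BECs had a read after thinning. Of the control LEC reads, 230 of 241 and 17 of 38 lay in cells with markers of other cell types, as did 189 of the 203 BEC reads of control 2. Cells with fibroblast markers had 21.9 and 61.6 CPM of *Svep1* in the controls. The log2 fold change in LECs was −4.58 (SE 1.33, adjusted p = 0.106 in edgeR and 0.0196 in DESeq2), and −2.41 (adjusted p = 0.277) without cells carrying other markers. It was −2.49 without control 1 and −5.41 without control 2. In BECs it was −3.93 (adjusted p = 0.208), −1.11 without those cells and −0.85 without control 2. The part of those cells in these values was not tested.

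Within mice, both vessel types differed most in the phosphatase and in *Tek*. *Ptprb* was lower in LECs than in BECs in 7 of 7 mice, with a log2 difference of −2.95 (SE 0.13, edgeR adjusted p = 1.5e-06), or 175 against 1344 CPM after TMM scaling. *Tek* was lower in LECs in 7 of 7 mice as well, by −0.98 (SE 0.08, adjusted p = 2.3e-05), at 228 against 446 CPM. These were 2 of the 5 members tested. Of all 17657 genes, edgeR called 26.5%, with 12.2% lower in LECs, and DESeq2 called 35.1%. *Tie1* differed by 0.12 (95% CI −0.12 to 0.36, adjusted p = 0.486), and *Angpt2* was higher in LECs by 0.51 (SE 0.17, adjusted p = 0.0612 in edgeR and 0.0323 in DESeq2) in 5 of 7 mice.

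Valve LECs carried more *Angpt2* and *Tie1* than the other LECs of the same mouse. *Angpt2* was higher in valve LECs in 7 of 7 mice, with ratios from 1.07 in control 1 to 7.13 in mutant 1 and a median of 3.34. The log2 difference of 1.61 (SE 0.28) had an edgeR adjusted p of 0.0228, where 1.44% of 15303 genes were called (0.85% as higher, 11.6% in all by DESeq2) and the median gene stood at −0.19. *Tie1* was higher in 7 of 7 mice by 0.44 (SE 0.09, adjusted p = 0.0422). *Ptprb* was higher in 6 of 7 by 0.76 (SE 0.19, adjusted p = 0.0873 in edgeR and 0.00377 in DESeq2), and *Tek* in 5 of 7 by 0.37 (adjusted p = 0.380). The call of *Angpt2* was lost without mutant 1, 2, 4 or 5 or control 2 (adjusted p up to 0.0786), and that of *Tie1* without any 1 of the 7 mice (adjusted p 0.0542–0.123).

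**Figure D3:**
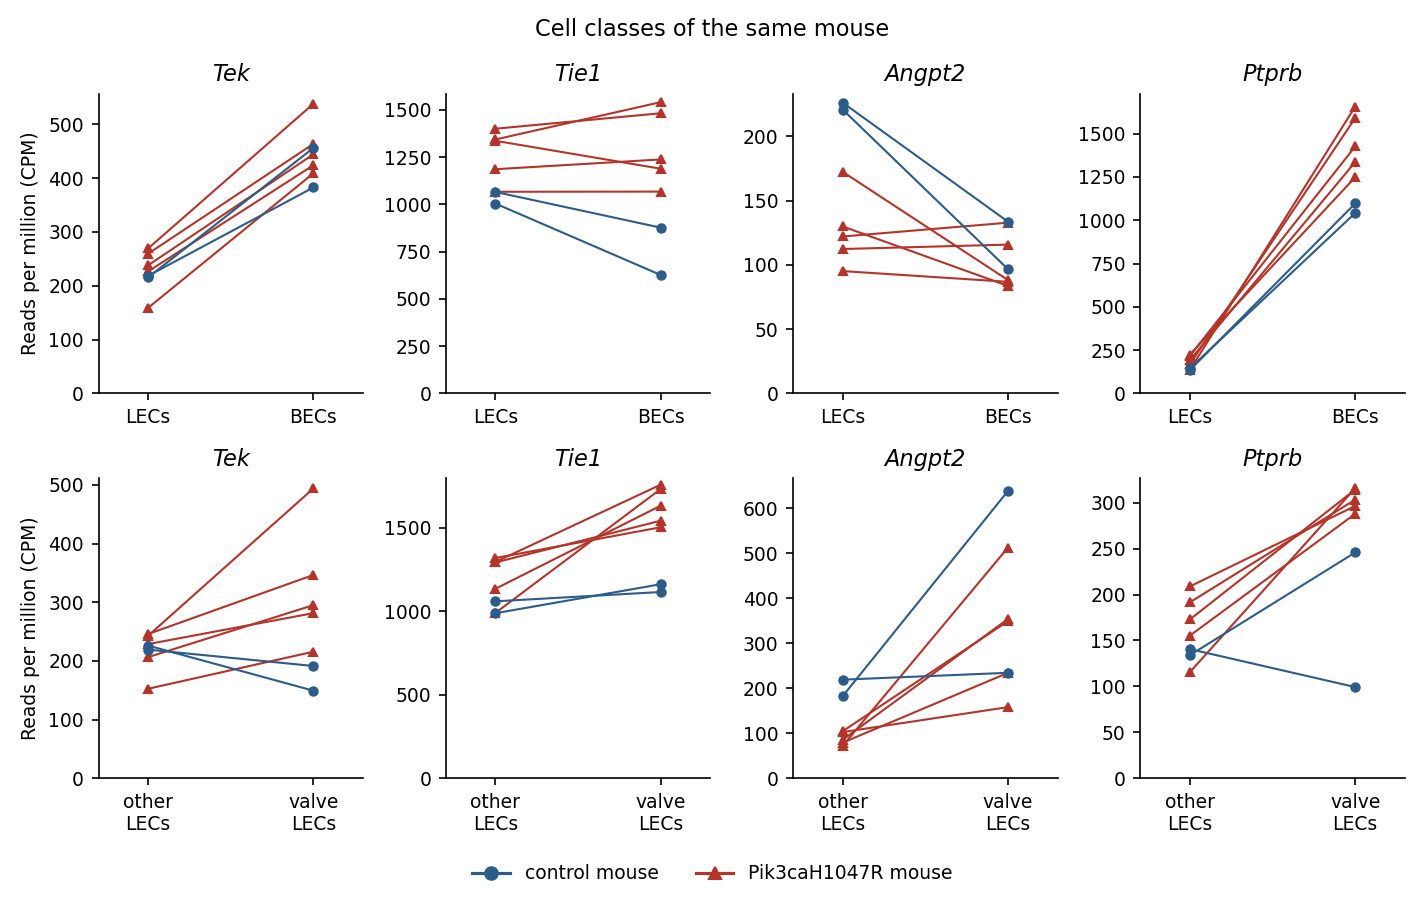
CPM of *Tek*, *Tie1*, *Angpt2* and *Ptprb* in LECs and BECs (upper row) and in other LECs and valve LECs (lower row), with a line joining the sums of each mouse, control (circles) or mutant (triangles). *Ptprb* and *Tek* rose from LECs to BECs in all 7 mice, and *Angpt2* rose from other to valve LECs in all 7.

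The members differed in how many cells held their reads. After thinning to 50000 reads per cell, an *Angpt2* read was found in 41.3, 22.5, 31.4, 21.4 and 38.4% of LECs of the mutants and in 56.8 and 51.4% of LECs of the controls (95% Wilson intervals 49.6–63.8% and 44.1–58.7%, counting error only). All mutants were below both controls, with a difference of −23.1 percentage points and a two-sided exact permutation p of 0.0952, the smallest that the 21 splits of 5 against 2 mice allow. In BECs the shares were 37.4, 19.6, 26.5, 17.6 and 23.3% against 38.0 and 36.6%, a difference of −12.4 points (exact permutation p = 0.190), or −23.6 points in cells not thinned. In *Apln*-positive BECs they were 28.2, 12.8, 24.1, 8.11 and 19.1% against 56.3 and 65.4%. *Angpt2* reads were concentrated, as the 10% of cells with most reads in a mouse held a median of 81.7% of them in LECs, 91.9% in BECs and 53.5% in valve LECs.

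*Tie1* was found in nearly every cell, with 98.4–100.0% of mutant and 98.3–98.4% of control LECs, and the 10% of cells with most *Tie1* held 23.4% of its reads. *Tek* was found in 58.3–68.9% of mutant and 63.4–68.3% of control LECs, and in 81.1–88.8% and 70.7–80.4% of BECs, where the mutants were all above the controls (8.48 points, exact permutation p = 0.0952). That difference was −1.09 points in cells not thinned and 3.66 points without control 2. *Ptprb* was found in 94.0–99.1% of mutant and 92.1–97.5% of control BECs. Both receptors were read in the same cell in a median of 66.5% of LECs and 79.1% of BECs, and cells with *Tek* but no *Tie1* read were 0.549% of LECs. The share of LECs with *Angpt2* and *Tek* reads together had a median of 22.9%.

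Ligand and receptor levels were also compared within each mouse. The ratio of *Angpt2* to *Tek*, both per kilobase, was 0.971, 0.600, 0.602, 0.451 and 1.04 in LECs of the mutants and 1.31 and 1.32 in those of the controls. All mutants lay below both controls (exact permutation p = 0.0952, the smallest possible). In BECs the ratio was 0.206–0.366 in mutants and 0.271 and 0.446 in controls, which overlapped. The ratio of *Tie1* to *Tek* in BECs was 2.21–3.35 in mutants and 1.84 and 1.57 in controls, again without overlap (exact permutation p = 0.0952).

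Among other genes of the pathway, a list of 7 partner, junction and shedding genes had 3 members higher in mutant LECs, beside 1.96% of all genes. These were *Mmp14*, a membrane-type metalloproteinase that can shed TEK, with 1.28 (SE 0.24, edgeR adjusted p = 0.0365), the fibronectin receptor chain *Itga5* with 1.02 (SE 0.13, adjusted p = 0.0107) and its partner *Itgb1* with 0.84 (SE 0.13, adjusted p = 0.0191). In BECs *Mmp14* was higher by 1.35 (SE 0.25, adjusted p = 0.0401) and *Itga5* by 0.96 (SE 0.17, adjusted p = 0.0385), 2 of 7 beside 1.36% of all genes. The list's median log2 fold change was 0.79 in LECs and 0.87 in BECs, against −0.01 and 0.01 over all genes tested. This list was drawn up with earlier results of these data known. The study had named *Mmp14* and *Adam17* as upregulated in mutant *Ptx3* LECs, so these shares and medians are a description only. Mean levels after TMM scaling were 678 CPM of *Mmp14* in mutant and 279 CPM in control LECs, and 352 and 174 CPM of *Itga5*. With each mouse left out the sign held, but *Mmp14* lost its call in LECs without mutant 1, 3 or 4 or control 1 (adjusted p up to 0.108), *Itgb1* without mutant 3 or 4 or either control (up to 0.0644), *Mmp14* in BECs without any mouse but control 2 (up to 0.0951) and *Itga5* in BECs without any mouse but mutant 5 (up to 0.136). *Itga5* in LECs kept it without each of the 7 mice.

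Of 11 TEK adaptors and effectors, 10 genes of PI3K, AKT, FOXO and flow signaling and 8 transcription factors known to act on *Angpt2* or *Tek*, 0 were called between genotypes in LECs and 0 in BECs by edgeR, beside 2.76% and 1.87% of all genes. Their medians in LECs were −0.29, −0.03 and −0.02, and in BECs 0.07, −0.30 and 0.33. *Dok2* was not tested in BECs. In BECs DESeq2, which called 11% of genes, passed *Foxo1* (log2 fold change 0.58, adjusted p = 0.0209), *Pik3ca* (−0.99, adjusted p = 0.0137) and *Foxc2* (2.31, adjusted p = 0.0181). *Foxc2* was low in BECs, at a mean of 11.4 CPM in mutants and 2.28 CPM in controls after TMM scaling. Of the angiopoietin-like genes, which do not bind TEK, *Angptl7* was lower in mutant BECs, at a log2 fold change of −7.87 (SE 0.72 and adjusted p = 0.00509), at 0.191 against 46.9 CPM, where 0.508% of genes were called lower, and the fibroblast markers, 5 of 5 read, were also higher in control BECs. Without cells carrying such markers it was −3.87 (adjusted p = 0.0750). In valve LECs edgeR called 0 of all listed genes, and DESeq2 gave adjusted p values under 0.05 for *Pik3r2* (3.6e-08), *Itga5* (0.0441) and *Angptl4* (0.0258).

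Between vessel types of the same mouse the listed genes differed more, and so did all genes, of which edgeR called 26.5%. Of 10 adaptors tested 3 were called higher in LECs and 0 lower. For 10 PI3K, AKT, FOXO and flow genes these counts were 1 and 3, for 7 partner genes 4 and 2, and for 8 transcription factors 1 and 2. The adaptors *Grb7* (2.45) and *Pik3r2* (0.82) were higher in LECs on the log2 scale, and so was *Shc1*, with a mean of 477 CPM in LECs after TMM scaling. The nitric oxide synthase *Nos3* (−0.92) and the kinase *Akt1* (−0.28) were lower, and the flow-responsive factor *Klf4* (0.37) was higher. Of the partner list, *Itgb3* (2.46), *Itgav* (2.03) and *Mmp14* (1.23) were higher and the VE-cadherin gene *Cdh5* (−1.29) was lower. *Foxc2*, a factor of valve and collecting vessels, was higher by 4.56, and the ETS genes *Elf1* (−1.23) and *Erg* (−0.40) were lower. In valve against other LECs, where edgeR called 1.44% of genes, *Grb7* (2.25), the shear stress factor *Klf2* (0.79), *Foxc2* (1.51) and *Gata2* (1.32) were higher, the latter 2 being valve markers as well. All of these passed edgeR's test after adjustment over all genes, *Klf4* and *Akt1* narrowly, with adjusted p values of 0.0468 and 0.0457. Between vessel types the call was lost without any mouse but control 1 for *Klf4* (adjusted p up to 0.144), without mutant 1, 3, 4 or 5 or control 1 for *Akt1* (up to 0.126), without mutant 2 or control 1 for *Grb7* (up to 0.0612), without mutant 1, 4 or 5 for *Pik3r2* (up to 0.0521) and without mutant 3 for *Erg* (0.0522). In valve against other LECs it was lost without any mouse but mutant 3 for *Klf2* (up to 0.101) and without any mouse but mutant 1 for *Grb7* (up to 0.0887).

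The genes whose pattern was most like each member over the 21 sums of other LECs, valve LECs and BECs were found by Pearson's r of log2 CPM among 6186 genes, as a description. Since 7 sums are of BECs, a gene that separates vessel types is favored. *Tek* was closest to *Cav1* (r = 0.91), *Gbp9* (0.89) and *Ggta1* (0.89), and *Ptprb* to *H2-K1* (0.96), *Esam* (0.95) and *Rflnb* (0.94). *Tie1* was closest to *Fstl1* (0.84), *Lhpp* (0.82) and *Ptn* (0.82), and *Angpt2* to *Atp13a2* (0.83), *Hprt* (0.83) and *Npepps* (0.82). Within the 7 BEC sums alone the r of *Atp13a2* with *Angpt2* was −0.56, and that of *Lhpp* with *Tie1* was 0.98.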

How the data were processed

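Smart-Seq2 cells from 7 mice on 9 plates were used. The deposited values are raw read counts per gene and cell. Per the labels and the study's methods, the authors used TopHat2 2.1.1 and a GRCm38 genome extended by chicken PIK3CA for alignment, SAMtools 0.1.18 against duplicate reads, and featureCounts for counting. The annotation version and strand setting are not given in the sources used here. There are no molecular barcodes. Intervals of shares rest on the number of cells of a mouse, so they cover counting error only and not the spread between mice.

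Spike-ins (0.447% of reads) were left out. Of 46517 Ensembl genes, 46005 were paired with symbols. Raw counts were summed per mouse and class, with at least 5 cells per sum, and fitted with edgeR 4.0.16 (filterByExpr, TMM, quasi-likelihood F test, Benjamini-Hochberg over all genes, called at an adjusted p under 0.05) in R 4.3.3. Comparisons within mice and of effects had the mouse as a block. Shares and ratios were compared by exact permutation over mice, with Python 3.11.15 and scipy 1.17.1. Cells were thinned to 50000 reads for shares. The fits were tested on simulated data.

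The genes named are the 7 members, up to 4 called genes of largest fold change from each of 5 pathway lists, and the 3 genes most like each member. The members and lists were chosen with earlier results of these data known, and the tests of *Apln*, *Ptx3* and non-valve classes were added after seeing the data. Alternatives were DESeq2 1.42.0, its size factors, omission of single mice, equal cell numbers, fitting without an expression filter, first plates only, thinned cells, other gates and cell subsets, and plate series. Control 3 was not analysed here. 1 listed gene is not reported here. The sums held 55616045–194353210 reads for LECs, 39610940–102714572 for BECs and 5906709–21490524 for valve LECs, so values in valve LECs are the least precise.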

Additional observations from a re-analysis of the deposited data

Results flagged for a closer look

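For *Angpt2* the mutant effect in *Apln*-positive BECs minus that in *Apln*-negative BECs was −4.35 on the log2 scale (SE 0.48, edgeR adjusted p = 0.0187), a difference between classes of the same mice that was tested directly. *Angpt2* lay at 15.9–55.6 CPM in *Apln*-positive BECs of mutants and 277–323 CPM in those of controls, from 16 and 26 control cells. For *Ptprb* the same difference was 0.87 (SE 0.10, adjusted p = 0.0205), beside a median of 0.41 over all genes. *Apln* itself differed between genotypes in BECs, so which cells the gate selects and a change within cells cannot be told apart. The split was chosen after the data had been seen. In 32 groups of 5 mutant values, 0 had a mouse far from the others by Dixon's limit.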

How the results depend on the processing

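The number of genes called depended on the setting. DESeq2 called 2472 genes in LECs, 2148 in BECs, 909 in valve LECs, 1174 for the LEC minus BEC effect and 1779 for valve against other LECs. The counts that follow are those of edgeR. In LECs the number called was 93 without cycling cells, 843 in *Ptx3*-positive and 10 in *Ptx3*-negative LECs and 178 with plate series as a term. Within the 800s and 900s plates the mutant arm was mutant 5 alone, so no count is given for them. In BECs it was 561 without cells carrying other markers, 1 in *Apln*-negative and 1386 in *Apln*-positive BECs and 37 with plate series as a term. In valve LECs it was 1 with thinned cells and 31 with *Cldn11* at 100 CPM. For the LEC minus BEC effect it was 16 with equal cell numbers, 26 without cycling cells, 102 without cells carrying other markers, 22 without mixed cells and 9 with plate series. LECs against BECs gave 778 in control mice only, and valve against other LECs 57 without mixed cells, 145 with no mouse block, 1 in control and 131 in mutant mice only. With each mouse left out the count was 153–546 in LECs (lowest without mutant 3), 127–534 in BECs (lowest without mutant 3), 0–20 for the LEC minus BEC effect (0 without control 2) and 106–211 for valve against other LECs (lowest without mutant 1 or 5).

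The replicate numbers of the labels name no shared animal, and same-numbered mice did not deviate together (r from −0.041 to 0.061). With the replicate block 3 genes were called in LECs, 0 in BECs and 0 in valve LECs, and *Angpt2* was 0.016 in BECs and 0.10 in valve LECs.

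Signs turned for these values. *Tek* in LECs was −0.00071 without cells carrying other markers, −0.16 without mixed cells, −0.40 in *Ptx3*-positive LECs, −0.0017 without valve LECs, −0.41 with plate series as a term and −0.40 within the 800s and 900s plates, and in BECs −0.010 and −0.00037 under the latter pair. *Angpt2* in BECs was 0.070 with equal cell numbers, 0.023 without cycling cells, 1.12 in *Apln*-negative BECs and −0.29 to 0.14 with each mouse left out (highest without control 2), and in valve LECs 0.44 with *Cldn11* at 1000 CPM and −0.97 to 0.36 with each mouse left out (highest without control 2). For the LEC minus BEC effect, *Tek* was 0.024 with thinned cells, and *Ptprb* 0.0018 without cycling cells, 0.19 without cells carrying other markers and −0.17 to 0.086 with each mouse left out (above 0 without mutant 4 or 5). *Tie1* in LECs against BECs was −0.13 without mixed cells and −0.066 in mutants only, *Tek* in valve against other LECs −0.17 in controls only, and *Ptprb* in *Apln*-negative BECs −0.094 without cells carrying other markers. The valve minus other LEC effect of *Angpt2* ranged from −0.092 (without control 1) to 1.62. The causes were not tested.

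For *Angpt2* within the 800s and 900s plates the *Apln* difference was −5.17, the value outside valves −0.90 and that in *Ptx3*-positive LECs −2.45, with 1 mutant mouse, so no call is read from them. DESeq2 gave 1.10 in *Apln*-negative BECs and −2.14 for the *Ptx3* difference, both past it. With each mouse left out the values were −4.74 to −3.87 for the *Apln* difference, −1.31 to −0.93 outside valves and −2.78 to −1.31 for the *Ptx3* difference, which passed without control 2. Differences in shares of cells, in percentage points, were 0.0 and 2.47 for *Tie1* in LECs (not thinned, and at 2 reads or more), −2.36 for *Ptprb* in LECs, −9.34 for *Tek* in valve LECs and −23.6 for *Angpt2* in BECs (not thinned), −1.09 and 13.0 for *Tek* in BECs and 0.369 and 11.8 for *Tie1* in BECs (not thinned, and at 2 reads or more). With each mouse left out they were −2.83 to 29.0 for *Tek* in valve LECs, 3.66 to 13.3 for *Tek*, 1.15 to 8.44 for *Tie1* and −0.861 to 4.61 for *Ptprb* in BECs.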
